A study of Rattus norvegicus and Mus musculus with 12 samples.

Results

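The genes of bone morphogenetic protein (BMP), growth differentiation factor (GDF) and transforming growth factor β (TGF-β) signalling were followed in primary articular chondrocytes of rat and mouse, with and without interleukin 1β (IL-1β). The 55 members were rows whose symbol matched a list of 15 ligands, 11 receptors, 10 SMADs and SMURFs, 10 antagonists and modulators, 4 latent TGF-β binding proteins and 5 target genes. All 55 were found in the rat table, which holds 19687 genes, and in the mouse table, which holds 28603. After removal of genes with low counts, 54 members were tested in rat and 55 in mouse. Acvr2b, a type II activin receptor, was not tested in rat, where the 3 control libraries summed to 5 counts and the 3 model libraries to 16.

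RNA-seq was performed on 12 libraries in 4 groups of 3. RC and MC were untreated chondrocytes of Sprague-Dawley (SD) rats and of C57BL mice, and RM and MM were the same cells exposed to 20 ng/ml IL-1β, an inflammatory cytokine used to model osteoarthritis in culture, for 24 h. The study's methods describe cells from the articular cartilage of newborn animals, used at the first passage. These methods name C57BL/6 for all mice, while the labels give C57BL/6, C57BL/7 and C57BL/8 for MC replicates 1 to 3 and C57BL/7, C57BL/8 and C57BL/9 for MM replicates 1 to 3. The strain label thus differs between same-numbered MC and MM libraries. The study calls the 3 samples of a group independent, and nothing in the labels says whether they came from separate animals, so the P values measure the spread between these samples, which may be technical. Species cannot be told apart from strain or anything else that differed between the rat and mouse cultures.

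Ligands of this family bind pairs of type I and type II receptor kinases at the cell surface. BMPs and some GDFs signal through SMAD1, SMAD5 and SMAD9, whereas TGF-βs and activins signal through SMAD2 and SMAD3, and SMAD4 joins both branches. SMAD6 and SMAD7 inhibit signalling, secreted antagonists such as noggin and gremlin hold BMPs away from their receptors, and latent TGF-β binding proteins tether TGF-β in the matrix. In cartilage, BMPs and GDF5 drive chondrogenesis and joint formation, and TGF-β maintains articular cartilage.

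The libraries held 20169272 to 25903459 counts in rat and 16841580 to 20048322 in mouse, and 3 counts corresponded to 0.1158 to 0.1781 CPM. Between libraries of a group, the coefficient of biological variation was 0.106 in rat and 0.0318 in mouse, so smaller changes passed the test in mouse. Expression is given as FPKM, the fragments of a gene scaled to its length and to the size of the library. Fold changes come from counts scaled by TMM, a scaling that centres most genes on no change, and the deposited FPKM lack it. Without TMM the median log2 fold change of all tested mouse genes was -0.30 instead of -0.02, so mouse FPKM ratios lie below the fitted folds, while the rat median was 0.02 instead of 0.01. The chondrocyte identity was checked with 10 cartilage markers, which all had an FPKM over 1 in RC, RM and MC. In MM 9 of them did, and Matn3 had a mean of 0.162. Of these 10 markers, 8 were downregulated in rat and 10 in mouse by the criteria given below, beside 3.9% and 13% of all genes. Their summed FPKM went from 5080 to 5720 in RC to 2010 to 2050 in RM, and from 2400 to 2450 in MC to 210 to 224 in MM. IL-1 response genes gave 9 of 10 called up in rat and 10 of 10 in mouse, beside 4.64% and 12.6% of all genes.

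Promoters of 4 members are shown because the members stand for the patterns described here. Id1 and Id3, target genes of BMP signalling, moved in opposite directions in the species, Grem1 rose in both and Gdf10 fell in both. The sequences are the 250 bases before the gene start in RefSeq on the rat assembly GRCr8, matched by symbol and not on the build of the counts. Capitals mark GGCGCC, a GC-rich motif known for BMP-activated SMADs.
Id1, chr3:161671314-161671563, plus strand: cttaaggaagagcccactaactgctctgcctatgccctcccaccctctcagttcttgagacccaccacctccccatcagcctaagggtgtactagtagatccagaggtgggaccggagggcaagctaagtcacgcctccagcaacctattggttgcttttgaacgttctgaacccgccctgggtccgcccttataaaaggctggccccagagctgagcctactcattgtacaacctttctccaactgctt
Id3, chr5:153656041-153656290, plus strand: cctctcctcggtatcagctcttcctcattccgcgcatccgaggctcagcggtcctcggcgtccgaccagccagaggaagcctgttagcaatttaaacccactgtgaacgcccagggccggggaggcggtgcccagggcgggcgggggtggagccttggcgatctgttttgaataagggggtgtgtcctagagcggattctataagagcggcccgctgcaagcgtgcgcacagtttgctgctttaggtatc
Grem1, chr3:120978320-120978569, minus strand: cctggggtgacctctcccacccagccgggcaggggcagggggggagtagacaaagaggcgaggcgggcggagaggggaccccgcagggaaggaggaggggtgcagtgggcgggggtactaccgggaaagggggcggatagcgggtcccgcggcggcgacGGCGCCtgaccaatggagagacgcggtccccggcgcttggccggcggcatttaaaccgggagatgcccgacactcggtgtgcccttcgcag
Gdf10, chr16:9243262-9243511, plus strand: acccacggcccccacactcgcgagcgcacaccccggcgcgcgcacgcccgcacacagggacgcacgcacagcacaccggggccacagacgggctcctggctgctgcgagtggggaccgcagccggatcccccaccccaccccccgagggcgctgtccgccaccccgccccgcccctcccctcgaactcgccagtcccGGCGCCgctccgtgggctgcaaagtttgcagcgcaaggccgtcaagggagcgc
GGCGCC starts 91 bases upstream of the gene start in Grem1 and 53 bases upstream in Gdf10, and these letters are not in the Id1 and Id3 windows. Of the 45 members with a promoter matched, 13 held GGCGCC on either strand, against 8.69% of the 33469 promoters of the same length. CAGACA, a SMAD binding element, was in 3 of the 45, against 17.2% of all promoters. The palindromic SMAD element GTCTAGAC, in 0.173% of all promoters, and a 10-base NF-κB motif, in 0.0956%, were in none of the 45. Members were counted once per gene and the background per promoter, and the background was not matched for GC content. Enrichment of a motif was not tested. None of the 4 motifs contains another, and a match describes letters only, not a bound site.

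Genes were called upregulated or downregulated by the study's criteria as read here. The study states a fold change above 0.85, a P value under 0.05 and an FPKM of 1 or more, which were taken as a log2 fold change in either direction, P before adjustment and any library compared. In rat, 9 members were upregulated and 4 downregulated in RM. The background over all 13303 tested rat genes was 4.64% called up and 3.9% called down, 8.54% in all. In mouse, 13 members were upregulated and 16 downregulated in MM, with 12.6% and 13% of 14774 genes called up and down, 25.6% in all. By an adjusted P under 0.05 alone, 20 members rose and 13 fell in rat, where 18.3% and 16.8% of all genes did, and 27 rose and 22 fell in mouse, where 37.4% and 37.7% did. In all, 35.1% of rat and 75% of mouse genes passed that threshold. The median log2 fold change of the members was 0.09 in rat and 0.19 in mouse, beside 0.01 and -0.02 over all genes tested.

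Among the 54 members tested in both species, 7 were upregulated in both: Bmp6, Inhba, Bmpr1b, Smad7, Grem1, Fst and Ltbp2. Another 4, Gdf10, Chrd, Chrdl1 and Bambi, were downregulated in both. Of the 10912 genes tested in both species, 1.91% were called up in both and 1.96% down in both. A further 18 members were called in mouse alone and 2, Bmp7 and Inhbb, in rat alone. No member was called in opposite directions, which 1.55% of shared genes were. With the adjusted P alone, 4 members went in opposite directions: Id1, Id3 and Ltbp1, which rose in rat and fell in mouse, and Gdf11, which fell in rat and rose in mouse. The change itself differed between the species at an adjusted P under 0.05 for 43 of 54 members, where 63.8% of shared genes did. That test used a spread pooled over both species.

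**Figure D1:**
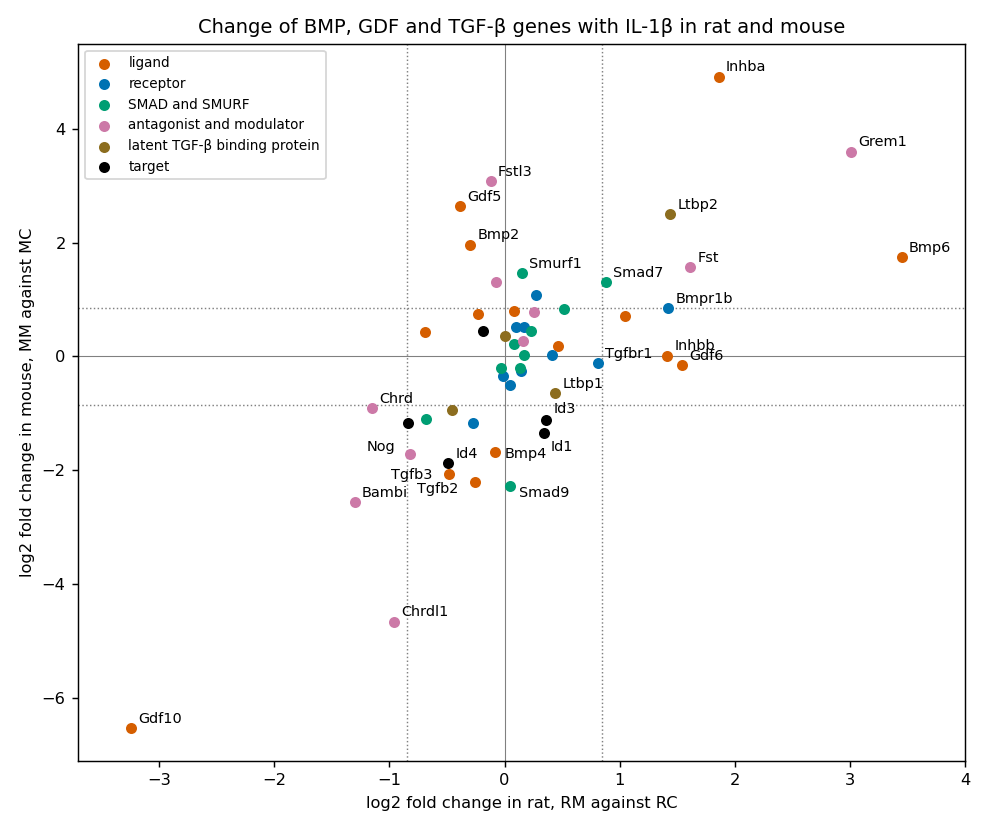
Each point is 1 of the 54 members tested in both species, with its log2 fold change in rat (RM against RC) on the horizontal axis and in mouse (MM against MC) on the vertical axis, coloured by class. Dotted lines mark 0.85 in either direction. Gdf10 lies at the lower left, Grem1, Inhba and Bmp6 at the upper right, and Id1 and Id3 to the right of 0 in rat and under it in mouse.

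The ligands showed the widest range of change, with log2 fold changes between -3.24 and 3.45 in rat and between -6.54 and 4.92 in mouse. In rat, Bmp6, Bmp7, Inhba and Inhbb were upregulated and Gdf10 was downregulated. In mouse, Bmp2, Bmp6, Gdf5 and Inhba were upregulated, and Bmp4, Tgfb2, Tgfb3 and Gdf10 were downregulated.

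Gdf10 encodes GDF10, also called BMP3B, and lies on mouse chromosome 14 from 33923587 to 33937983 on the plus strand of GRCm38. Its FPKM was 13.4, 15 and 14 in RC and 0.999, 1.49 and 2.01 in RM. In mouse it was 24.9, 27.2 and 23.5 in MC and 0.23, 0.137 and 0.307 in MM. Every control library was above every model library in both species. The log2 fold change was -3.24 ± 0.18 (SE, adjusted P = 5.15e-07) in rat and -6.54 ± 0.099 (adjusted P = 1.28e-55) in mouse. The fall was larger in mouse, by 3.31 on the log2 scale (95% interval -3.91 to -2.71, adjusted P = 2.34e-08), with 66 counts left over the 3 MM libraries.

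Inhba encodes the activin A subunit and lies on mouse chromosome 13 from 16011851 to 16031621, plus strand. It gave 13.7, 8.36 and 10 FPKM in RC and 45.2, 36.6 and 35.9 in RM. The mouse libraries held 5.63, 5.3 and 5.73 FPKM in MC and 148, 133 and 137 in MM. The model libraries were higher throughout, and Inhba had the highest FPKM of the 15 ligands in MM. The log2 fold change was 1.86 ± 0.16 in rat (adjusted P = 1.34e-05) and 4.92 ± 0.041 in mouse (adjusted P = 1.66e-70), a difference of 3.07 (2.69 to 3.45, adjusted P = 1.51e-10). Inhbb, the activin B subunit, changed in rat, from 1.12 ± 0.182 to 3.03 ± 0.484 FPKM (mean ± SD, n = 3) with a log2 fold change of 1.41. In mouse Inhbb had a log2 fold change of 0.01 (-0.20 to 0.23), which became -0.27 with scaling by library size alone.

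Bmp6 rose from a low level in both species. The rat libraries went from 0.845, 0.821 and 0.654 FPKM in RC to 9.39, 8.38 and 8.15 in RM, and the mouse libraries from 1.32, 1.37 and 1.33 in MC to 3.67, 4.06 and 3.29 in MM. The log2 fold change was 3.45 ± 0.16 in rat and 1.74 ± 0.12 in mouse, and it was larger in rat (difference -1.71, interval -2.13 to -1.29, adjusted P = 9.43e-07). Bmp7, another osteogenic BMP, had 0.537 ± 0.121 FPKM in RC and 1.13 ± 0.109 in RM, a log2 fold change of 1.05. This call was lost under limma on log2(FPKM + 1). In mouse Bmp7 rose by 0.71 (adjusted P = 0.0042), to 0.662 FPKM in MM, and met neither the fold nor the FPKM criterion. The mouse rise of Bmp7 did not pass with scaling by library size alone (0.43, adjusted P = 0.0767). The difference of Bmp7 between the species was -0.33 with an interval from -0.96 to 0.30, and its adjusted P was 0.345.

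Gdf5 and Bmp2 rose in mouse and passed neither the adjusted P nor the fold criterion in rat. Gdf5, a joint-forming ligand, had 3.2, 3.33 and 3.7 FPKM in MC and 18.3, 16.9 and 17.5 in MM, a log2 fold change of 2.64 ± 0.083. In rat the values were 4.91, 5.12 and 6.24 in RC and 4, 4.13 and 4.43 in RM. The log2 fold change was -0.39 with an adjusted P of 0.0587, and the edgeR P before adjustment was 0.0217. With upper quartile factors this fall did pass (-0.45, adjusted P = 0.032). The 2 rat groups of Gdf5 did not overlap, and the difference between species was 3.02 (2.71 to 3.34, adjusted P = 1.93e-11). Gdf5 shares 40.3% of its exon bases with Gm15557 on the opposite strand, to which 1 count was assigned in MC and 5 in MM. Bmp2 rose from 0.871, 0.852 and 0.799 FPKM to 2.82, 2.53 and 2.72 in mouse, a log2 fold change of 1.96 ± 0.15. The rat values of Bmp2, 3.77, 3.44 and 3.84 in RC and 3.68, 2.73 and 2.72 in RM, overlapped (log2 fold change -0.30, adjusted P = 0.131).

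The TGF-β isoforms changed in their proportions in mouse. Tgfb2 fell from 38.1 ± 1.25 to 6.79 ± 0.266 FPKM and Tgfb3 from 35.1 ± 0.549 to 6.88 ± 0.279, log2 fold changes of -2.21 and -2.07. Tgfb1 rose from 11 ± 0.58 to 15.8 ± 0.51, a log2 fold change of 0.80 that is under the fold criterion. Tgfb1 thus made up 12.8 to 13.5% of the summed FPKM of the 3 isoforms in MC and 52 to 54.5% in MM, while that sum went from 83.1 to 86.2 in MC to 29.2 to 29.9 in MM. In rat, Tgfb1 was 42.3 to 47.2% of the sum in RC and 52.2 to 55.8% in RM. Tgfb1 showed no passing change in rat (log2 fold change 0.08), and Tgfb2 (-0.26) and Tgfb3 (-0.48) fell by less than the fold criterion. The change of each of the 3 isoforms differed between the species, by 0.72, -1.95 and -1.59 for Tgfb1, Tgfb2 and Tgfb3. Macrophages are a known source of TGF-β1, and macrophage and leukocyte markers were summed over the 8 found in the rat table and the 10 found in the mouse table. The sum was 22.9 to 27 FPKM in RC, 32.7 to 35.9 in RM, 7.48 to 7.77 in MC and 34.4 to 37.2 in MM. Of the 6 markers tested in rat 2 were called up (Cd14 and Cd68) and 2 down (Laptm5 and Lyz2), beside 4.64% and 3.9% of all genes. Csf1r also fell in rat by adjusted P, so the rise of the rat sum was not shared by most of these markers. Of the 4 tested in mouse 3 were called up, beside 12.6% of all genes. Cd14 and Cd68 held most of the sum in MM, Ptprc, the pan-leukocyte gene, had 3 counts over MC and 1 over MM, and Itgam had 0 counts in every mouse library. Their part in the Tgfb1 result was not tested. In bulk RNA, fewer cells of a type and less RNA per cell cannot be told apart.

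Bmp4, the most abundant BMP of MC, fell in mouse from 67.6, 67.8 and 67 FPKM to 17.5, 17.4 and 16.8. Its log2 fold change was -1.69 ± 0.044 in mouse and -0.08 ± 0.084 in rat, where the groups overlapped. All rat libraries lay between 10.7 and 12.5 FPKM. Bmp4 made up 89.3 to 90% of the summed FPKM of Bmp2 to Bmp7 in MC and 58 to 59.4% in MM. In rat the share went from 43.1 to 50.2% in RC to 28.8 to 32.9% in RM, beside a rise of the Bmp6 share from 2.52 to 3.4% to 22.2 to 25.2%. Gdf11, a ligand related to myostatin, fell in rat from 5.12 ± 0.249 to 3.2 ± 0.0984 FPKM (log2 fold change -0.69) and rose in mouse by 0.43, with overlapping mouse libraries. The rise of Gdf11 in mouse did not pass with scaling by library size alone (0.15, adjusted P = 0.177). Among the other ligands, Bmp3 (0.74 in mouse), Bmp5 (0.46 in rat, 0.19 in mouse) and Gdf6 (1.54 in rat, from 25 counts over RC to 74 over RM) passed the adjusted P without meeting all the study's criteria. Bmp5 in mouse had a log2 fold change of -0.09 with scaling by library size alone.

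**Figure D2:**
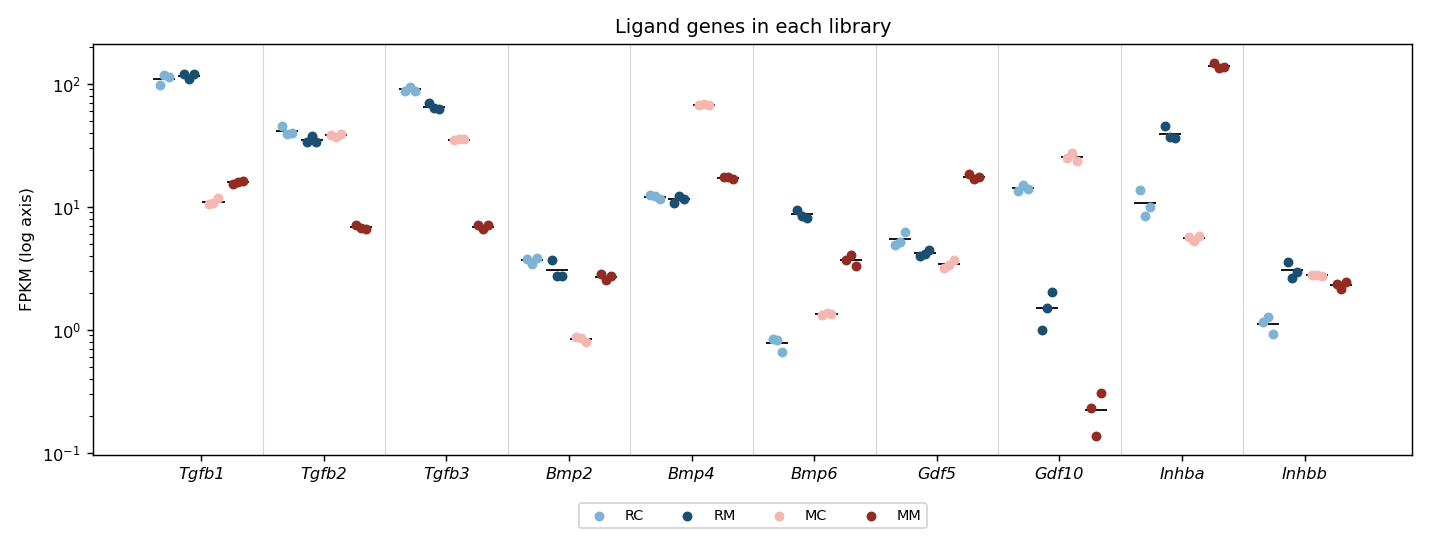
FPKM of 10 ligand genes in each library on a log axis, with 3 points per group and a black bar at the group mean. Gdf10 drops in both species, Inhba and Bmp6 climb in both, and Tgfb2, Tgfb3 and Bmp4 drop in mouse. In rat the groups of Bmp4 overlap, and Tgfb2 and Tgfb3 lie lower in RM by less than in mouse.

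The receptor genes changed less than the ligands. Of the 11 receptors, Bmpr1b was upregulated in both species, Tgfbr3 was upregulated and Tgfbr2 downregulated in mouse, and the remaining receptors were called in neither. In rat all tested receptors lay between -0.27 and 1.42 on the log2 scale, and in mouse between -1.17 and 1.07.

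Bmpr1b encodes the type I BMP receptor through which GDF5 signals. Its FPKM was 2.24, 2.09 and 2.12 in RC and 6.74, 5.49 and 5.25 in RM, against 1.92, 1.94 and 1.94 in MC and 2.88, 2.92 and 2.83 in MM. The log2 fold change was 1.42 ± 0.15 in rat. In mouse it was 0.85 ± 0.094, at the fold criterion itself, and 0.57 with scaling by library size alone, which does not meet it. Tgfbr2, the type II receptor of TGF-β, had 66.9, 64.9 and 68.6 FPKM in MC and 24.5, 24.3 and 24.7 in MM (log2 fold change -1.17 ± 0.031). In rat it had 66.9, 69.7 and 68.4 in RC and 57.1, 56.9 and 58.4 in RM, a fall of -0.27 ± 0.062 (adjusted P = 0.00782). The fall of Tgfbr2 was larger in mouse by 0.90 on the log2 scale (interval -1.03 to -0.77).

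Tgfbr3 encodes betaglycan, a co-receptor that presents TGF-β2. It gave 25, 27 and 27.3 FPKM in MC and 46.2, 44.1 and 47.4 in MM (1.07 ± 0.034), and 15.5, 16.1 and 15.2 in RC and 18.2, 19 and 19.8 in RM (0.27 ± 0.069). The rat rise did not pass with upper quartile factors (0.20, adjusted P = 0.0548). With scaling by library size alone the mouse change was 0.79, under the fold criterion. Tgfbr1, the type I receptor of TGF-β, rose in rat from 6 ± 0.974 to 10.7 ± 0.21 FPKM (0.81, adjusted P = 0.000211) and had -0.12 in mouse (adjusted P = 0.0622), which passed as a fall with scaling by library size alone (-0.40) and with upper quartile factors (-0.25). It met the study's criteria in rat when RC replicate 1, its highest control library, was left out. Bmpr1a fell by 0.50 in mouse and had 0.05 in rat, and Bmpr2 and Acvr1 rose in mouse by 0.51 and 0.52. Acvr2a rose in rat (0.41) and had 0.03 in mouse, which was -0.25 with scaling by library size alone. Eng and Acvrl1, co-receptor and receptor best known from endothelial cells, had log2 fold changes of -0.34 and -0.26 in mouse and -0.01 and 0.14 in rat. Endothelial markers, of which each table holds 7 of 8 and not the same 7, summed to 0.129 to 0.136 FPKM in RC, 0.17 to 0.202 in RM, 0.552 to 0.694 in MC and 0.84 to 0.864 in MM, against 9.13 and 21.4 FPKM of Eng in RC and MC. None of them had enough counts to be tested in rat. In mouse 2 were tested, and by adjusted P Vwf rose (2.18) and Tek fell (-0.80), both at an FPKM under 1. Their part in the Eng and Acvrl1 values was not tested.

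Of the SMAD genes that carry the signal, Smad1 to Smad5 kept within a narrow range. The inhibitory SMADs and Smurf2 moved further in both species, and Smurf1 moved further in mouse only. Smad9 moved further in mouse, and its rat counts were too low to tell. For Smad1, Smad2, Smad3, Smad4 and Smad5, the log2 fold changes lay between -0.03 and 0.23 in rat and between -0.20 and 0.44 in mouse, and none met the study's criteria. By adjusted P, Smad1 rose in mouse (0.44) and in rat (0.23, adjusted P = 0.0496), the latter not passing with upper quartile factors (adjusted P = 0.166) or DESeq2 (0.0859). In mouse Smad4 rose (0.22) and Smad2 and Smad5 fell (-0.20 each). The directions of Smad3 (0.03) and Smad4 in mouse turned to -0.24 and -0.06 with scaling by library size alone.

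Smad7, an inhibitory SMAD induced by TGF-β and by inflammatory signals, was upregulated in both species. It had 6.5, 5.67 and 5.81 FPKM in RC and 10.9, 11.4 and 11.2 in RM, and 8.09, 8.48 and 7.76 in MC and 16.7, 16.2 and 16.5 in MM. The model libraries were above the controls in both. Its log2 fold change was 0.88 ± 0.08 in rat (adjusted P = 1.86e-05) and 1.30 ± 0.051 in mouse (adjusted P = 1.37e-32). The rat value was near the fold criterion and came to 0.84 without RC replicate 2.

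Smad6, the inhibitory SMAD of the BMP branch, went the other way. Its FPKM was 14.9, 17.7 and 17.8 in RC and 9.44, 9.8 and 12.5 in RM, a log2 fold change of -0.68 ± 0.12 (adjusted P = 0.00186). In mouse it was 39.3, 39.2 and 36.9 in MC and 14, 15.2 and 15.1 in MM, a log2 fold change of -1.10 ± 0.045. Smad6 thus fell and Smad7 rose in both species.

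Smad9 encodes SMAD9, also called SMAD8, and was expressed mainly in mouse. It fell from 6.88, 6.58 and 6.5 FPKM in MC to 1.24, 1.05 and 1.09 in MM (-2.28 ± 0.092). In rat the 3 libraries of each group held 38 and 41 counts in all, with 0.138, 0.345 and 0.488 FPKM in RC and 0.17, 0.177 and 0.645 in RM. The rat change, 0.05 with an interval from -1.27 to 1.37, could not be given a direction at this depth. Smurf1, a ubiquitin ligase that marks SMADs and receptors for degradation, rose from 11.2, 13 and 12 FPKM in MC to 27.4, 27.5 and 27.4 in MM (1.46 ± 0.041). The rat values overlapped, at 8.36, 9.53 and 8.83 in RC and 10.1, 9.49 and 10.3 in RM (0.15, adjusted P = 0.177), and the difference was 1.32 (1.12 to 1.51). Smurf2 rose in both species by less than the fold criterion, by 0.52 in rat and 0.83 in mouse.

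**Figure D3:**
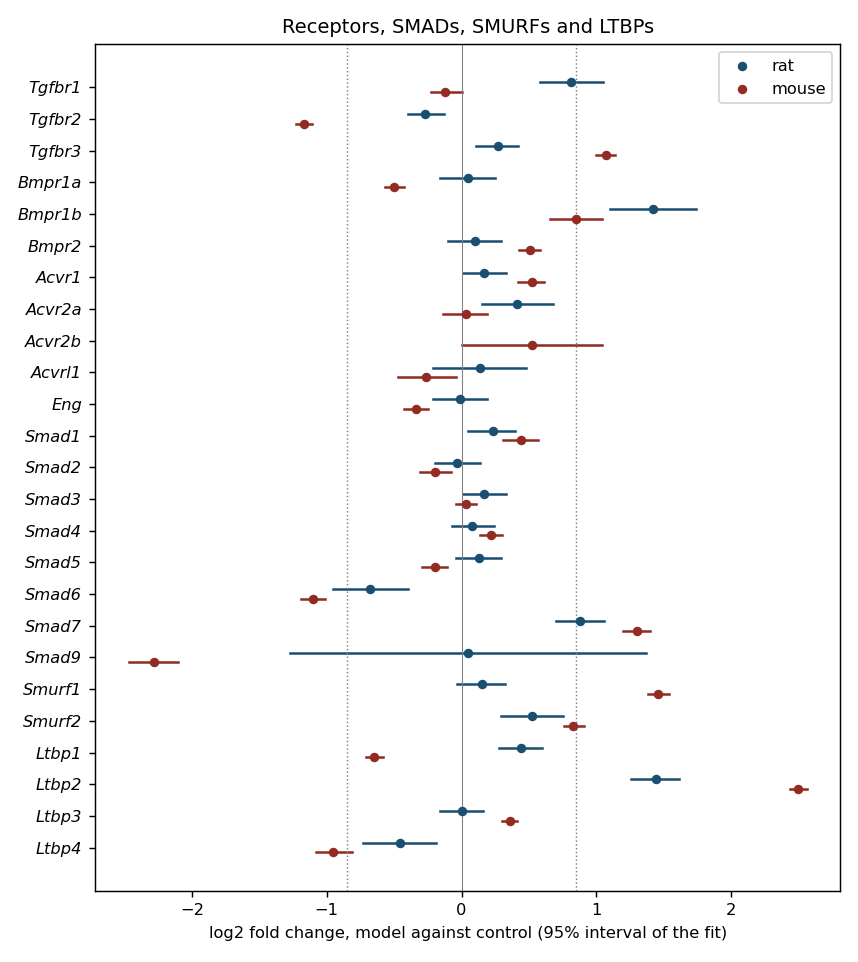
Log2 fold change of each receptor, SMAD, SMURF and latent TGF-β binding protein gene, model against control, with the 95% interval of the fit, in rat (blue) and mouse (red). Dotted lines mark 0.85 in either direction. Smad1 to Smad5 stay near 0 in both species, Smad9 in rat has the widest interval, and Ltbp2 lies furthest to the right.

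Antagonists moved in both directions, with gremlin and follistatin up and chordin, chordin-like 1, noggin and BAMBI down. In rat 2 of 10 were upregulated and 3 downregulated, beside 4.64% and 3.9% of all genes tested. In mouse 4 were upregulated and 4 downregulated, beside 12.6% and 13%. Grem1 encodes gremlin 1, which binds BMP2 and BMP4, and lies on mouse chromosome 2 from 113746164 to 113758646 on the minus strand. Its FPKM was 40.8, 32.1 and 36.1 in RC and 324, 289 and 274 in RM, and 88.8, 99.1 and 102 in MC and 986, 926 and 977 in MM. It had the highest FPKM of all 55 members in MM. The log2 fold change was 3.01 ± 0.1 in rat (8.05-fold, adjusted P = 1.34e-08) and 3.60 ± 0.031 in mouse (12.1-fold, adjusted P = 4.66e-69), and the difference was 0.59 (0.35 to 0.83).

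Chordin, noggin and chordin-like 1 also bind BMPs outside the cell. Chrdl1, on mouse chromosome X from 143285674 to 143394262, minus strand, had 20.2, 21.9 and 22.2 FPKM in MC and 0.686, 0.817 and 0.567 in MM, a log2 fold change of -4.67 ± 0.071. In rat it had 1.12, 1.07 and 1.13 in RC and 0.362, 0.668 and 0.681 in RM, a log2 fold change of -0.96 ± 0.24 (adjusted P = 0.0103). Without RM replicate 1, its lowest library, the rat value was -0.73 and no longer met the fold criterion. The change in mouse minus that in rat was -3.73 (-4.22 to -3.24). Chrd fell in rat from 5.73 ± 0.909 to 2.6 ± 0.384 FPKM (-1.15) and in mouse from 6.3 ± 0.383 to 2.77 ± 0.235 (-0.91). Its mouse call was lost without MM replicate 1. The difference for Chrd was 0.24 with an interval from -0.13 to 0.61. Nog fell in rat by 0.82, under the fold criterion, and in mouse from 12.3 ± 0.944 to 3.08 ± 0.116 FPKM, with a log2 fold change of -1.72. Of the summed FPKM of Grem1, Nog, Chrd and Chrdl1, Grem1 held 70.8 to 78.7% in RC and 97.4 to 98.4% in RM, and 69 to 72.1% in MC and 99.3 to 99.4% in MM.

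Follistatin and its relative FSTL3 bind activins. Fst rose in both, with 18.3 ± 1.13 FPKM in RC against 56.4 ± 6.67 in RM and 6.51 ± 0.0325 in MC against 15.9 ± 0.976 in MM. Its log2 fold changes were 1.61 and 1.57, and the interval of the difference ran from -0.29 to 0.21. Fstl3, on mouse chromosome 10 from 79777272 to 79782630, plus strand, rose in mouse from 2.84, 2.96 and 2.98 FPKM to 19.9, 20 and 21.3 (3.08 ± 0.079, adjusted P = 9.22e-43). In rat its libraries overlapped, at 4.53, 5.67 and 4.79 in RC and 5.28, 4.07 and 4.67 in RM (-0.12, adjusted P = 0.563), and the difference was 3.20 (2.88 to 3.52). Fstl3 shares 47.3% of its exon bases with Prss57 on the opposite strand, which held 2 counts in MC and 2 in MM. Fstl1, a follistatin-like glycoprotein, was abundant throughout. It had 429, 423 and 410 FPKM in RC and 418, 402 and 396 in RM, and 257, 264 and 260 in MC and 537, 530 and 534 in MM. Its log2 fold change was 1.31 ± 0.024 in mouse and -0.07 ± 0.056 in rat, where 1 RM library lay among the controls.

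Bambi encodes a decoy receptor without a kinase, itself a target of TGF-β and BMP signals. It fell from 5.7, 6.11 and 6.07 FPKM in RC to 2.44, 2.58 and 2.31 in RM (-1.30 ± 0.14), and from 2.79, 2.48 and 2.37 in MC to 0.383, 0.302 and 0.372 in MM (-2.57 ± 0.16). Nbl1, a BMP antagonist of the DAN family, rose by less than the fold criterion, by 0.26 in rat and 0.78 in mouse, and the rat rise did not pass with upper quartile factors (0.19, adjusted P = 0.121). Crim1, a transmembrane BMP-binding protein, had 0.16 in rat (adjusted P = 0.068, and 0.0491 with scaling by library size alone) and rose by 0.27 in mouse, which was -0.01 under that scaling.

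**Figure D4:**
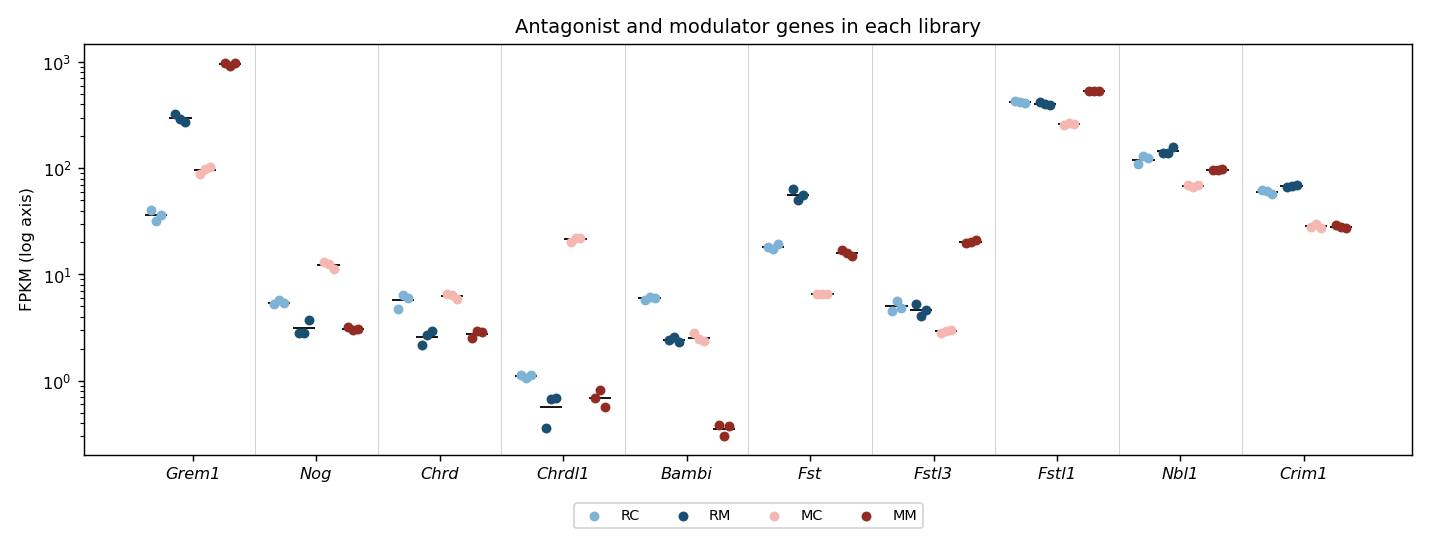
FPKM of the 10 antagonist and modulator genes in each library on a log axis, with 3 points per group and a black bar at the group mean. Grem1 and Fst lie higher in RM and MM than in RC and MC, Chrd, Nog, Chrdl1 and Bambi lie lower, and Fstl3 and Fstl1 separate the groups in mouse only, as their rat groups overlap.

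Ltbp2 was the only one of the 4 latent TGF-β binding proteins called in both species. It had 58.9, 70.6 and 62.7 FPKM in RC and 177, 167 and 183 in RM (1.44 ± 0.078), and 20.8, 21.3 and 21 in MC and 99.1, 96 and 98.3 in MM (2.50 ± 0.03). LTBP2, unlike the other members of the family, does not bind latent TGF-β. Ltbp1, which does, rose in rat from 40.4, 42.1 and 37.4 FPKM to 58.2, 53.2 and 53.4 (0.44, adjusted P = 0.000826) and fell in mouse from 24.1, 24.6 and 25.6 to 13, 13.1 and 13.1 (-0.65, adjusted P = 4.92e-26). Neither met the fold criterion, and the difference was -1.09 (-1.25 to -0.93). Ltbp4 had 3.25, 3.79 and 3.56 FPKM in RC and 2.17, 2.71 and 2.88 in RM (-0.46 ± 0.12), and 6.64, 7.23 and 7.11 in MC and 3.02, 2.97 and 2.99 in MM (-0.95 ± 0.066). Ltbp3 had 0.00 in rat and rose by 0.36 in mouse, which was 0.08 with scaling by library size alone.

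The target genes Id1, Id2, Id3 and Id4 encode inhibitors of basic helix-loop-helix transcription factors and are the usual readouts of BMP signalling, and Tgfbi encodes a matrix protein induced by TGF-β. In mouse, 4 of the 5 were downregulated, namely Id1, Id3, Id4 and Tgfbi, beside 13% of all genes tested. None met the study's criteria in rat, where Id1 and Id3 rose and Id4 and Tgfbi fell by adjusted P.

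Id1, on mouse chromosome 2 from 152736251 to 152737410, plus strand, had 96.9, 103 and 111 FPKM in RC and 134, 127 and 137 in RM. In mouse it had 83, 80.8 and 72.4 in MC and 25, 23.7 and 27.8 in MM. Every RM library was above every RC library, and every MM library was below every MC library. The log2 fold change was 0.34 ± 0.076 in rat (adjusted P = 0.006) and -1.35 ± 0.056 in mouse (adjusted P = 1.67e-31), and the difference was -1.69 (-1.91 to -1.47, adjusted P = 3.2e-10). Id3, on mouse chromosome 4 from 136143497 to 136145755, plus strand, followed with 275, 307 and 325 FPKM in RC, 404, 368 and 407 in RM, 159, 147 and 138 in MC and 57.5, 57.9 and 53.3 in MM. Its log2 fold change was 0.36 ± 0.078 in rat (adjusted P = 0.00473) and -1.12 ± 0.04 in mouse (adjusted P = 1.19e-34), with a difference of -1.48 (-1.69 to -1.27). The signs of Id1 and Id3 were the same under each scaling run and with each library left out in turn.

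Id4 fell in both species, going in rat from 10.6, 8.84 and 11.1 FPKM to 7.29, 7.1 and 7.55 (-0.49 ± 0.11) and in mouse from 4.33, 4.35 and 4.05 to 1.02, 0.983 and 0.817 (-1.88 ± 0.13). Id2 had -0.19 in rat (adjusted P = 0.0656, and 0.0194 with upper quartile factors) and rose by 0.45 in mouse. The mouse rise of Id2 was 0.17 with scaling by library size alone. The summed FPKM of the 4 ID genes was 473 to 544 in RC, 582 to 630 in RM, 239 to 276 in MC and 113 to 115 in MM. Tgfbi had 110, 121 and 115 FPKM in RC and 62.9, 63.9 and 69.2 in RM, a log2 fold change of -0.84 ± 0.07 (adjusted P = 9.6e-06) that lay just under the fold criterion. It had 19.4, 18.7 and 20.3 in MC and 6.79, 7.06 and 7.34 in MM (-1.18 ± 0.056).

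**Figure D5:**
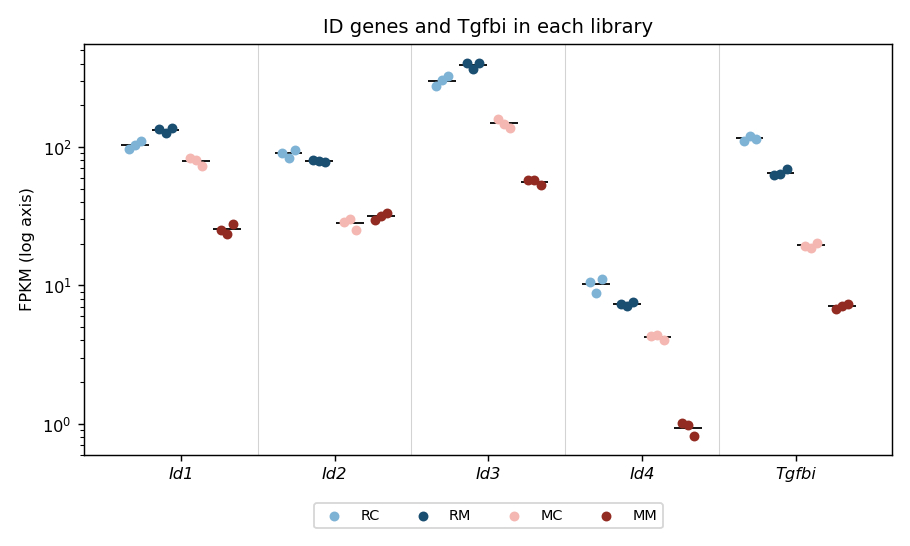
FPKM of the 4 ID genes and Tgfbi in each library on a log axis, with 3 points per group and a black bar at the group mean. For Id1 and Id3 the RM libraries lie above RC and the MM libraries below MC, while Id4 and Tgfbi are lower in the model group of both species.

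A further 91 genes of the pathway, in 7 lists, were examined in the same fits. Of these, 64 were tested in rat, with 11 upregulated and 10 downregulated, and 67 in mouse, with 17 and 15. Their median log2 fold changes were 0.01 and 0.02. The shares over all genes tested, to be set beside each list, were 4.64% up and 3.9% down in rat and 12.6% and 13% in mouse. Among the other ligands, Gdf15, a stress-induced GDF, fell in rat (-1.59 ± 0.25) and rose in mouse (1.90 ± 0.079). Inha, the inhibin α subunit, rose in mouse (2.69) and had -0.13 in rat, and Gdf7 fell in mouse (-1.65). In this list 0 of 4 tested genes were upregulated and 2 downregulated in rat, and 3 of 6 were upregulated and 1 downregulated in mouse. Of the other receptors and co-receptors, 2 of 7 were downregulated in rat, and 2 of 6 were upregulated and 1 downregulated in mouse. Lrrc32 encodes GARP, which holds latent TGF-β at the cell surface. It fell from 9.35, 10.6 and 10.2 to 3.22, 3.99 and 4.02 FPKM in rat (-1.43 ± 0.1) and rose from 49.7, 48 and 53.6 to 104, 108 and 111 in mouse (1.38 ± 0.033). Acvr1b, a type I activin receptor, rose in mouse (1.38) and in rat (0.50), and Rgma, a BMP co-receptor, fell in mouse (-1.03) and had 0.22 in rat.

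Other antagonists gave 1 of 7 upregulated and 1 downregulated in rat and 3 of 8 upregulated in mouse. Dcn encodes decorin, a proteoglycan that binds TGF-β, and rose from 6.38, 5.04 and 6.31 FPKM to 27.6, 31.4 and 27.6 in RM (2.27 ± 0.11), and its 22.7, 23.6 and 22.4 FPKM in MC became 607, 603 and 595 in MM (4.99 ± 0.03). Bmper, which encodes a secreted BMP-binding protein, rose by 2.57 in mouse and had 0.46 in rat. Among 10 tested genes of latent TGF-β activation, 3 were upregulated and 1 downregulated in rat and 1 was upregulated and 3 downregulated in mouse. Thrombospondin 1 (Thbs1), which activates latent TGF-β, fell by 0.84 in rat and 1.26 in mouse. Fbn2, a fibrillin of the microfibrils, fell by 1.55 and 2.02, and Pcsk6, a proprotein convertase, by 0.78 and 3.53. The upregulated genes of this list, named after their values were seen, were Fbn1 (1.07), Emilin1 (1.02) and Itgb8 (1.61) in rat, which had -0.38, -0.13 and 0.13 in mouse, and Itgav in mouse (1.39), which had 0.16 in rat.

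Among SMAD cofactors, 2 of 17 were upregulated in rat and 3 of 18 in mouse, and none was downregulated. The SMAD co-repressors Tgif1 (0.88 in rat, 2.41 in mouse) and Skil (1.29 and 2.02) rose in both. Nedd4l, a ubiquitin ligase acting on SMAD2 and SMAD3, rose by 1.32 in mouse and had -0.21 in rat.

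Direct TGF-β targets were split, with 4 of 12 upregulated and 3 downregulated in rat and 3 of 11 upregulated and 6 downregulated in mouse. Prg4, the gene of lubricin, rose from 8.53, 8.81 and 8.14 to 473, 493 and 461 FPKM in RM (5.79 ± 0.077), and its 12.8, 13.2 and 12.6 in MC became 114, 104 and 109 in MM (3.36 ± 0.038). Acta2, smooth muscle actin, fell by 0.85 in rat and 4.43 in mouse. Pmepa1, a TGF-β-induced inhibitor named here after its values were seen, rose by 1.55 in rat and fell by 1.06 in mouse. Of the direct BMP targets, 1 of 7 was upregulated and 1 downregulated in rat, and 2 of 8 were upregulated and 4 downregulated in mouse. Atoh8 (-0.30 in rat, -1.22 in mouse) and Dlx5 (-1.75 and -2.14) fell in both, as did the osteoblast factor Sp7, which had 45 counts over RC, 15 over RM, 433 over MC and 21 over MM. The upregulated genes of this list, named after their values were seen, were Msx1 in rat (0.94, against -1.17 in mouse) and Dlx3 (1.19, against -1.26 in rat) and Hey1 (1.51) in mouse. Fibroblast markers, which include the TGF-β target Col1a1, gave 3 of 8 downregulated in rat, with a summed FPKM of 3990 to 4490 in RC and 2610 to 2700 in RM, and 4 of 8 in mouse, with 2360 to 2400 in MC and 990 to 997 in MM. Muscle markers, measured beside Acta2, summed to 3.24 to 4.24 FPKM in RC, 2.67 to 3.12 in RM, 3.84 to 4.4 in MC and 0.4 to 0.826 in MM, with 0 of 1 tested called in rat and 2 of 3 downregulated in mouse. The part of these marker changes in the target results was not tested.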

How the data were processed

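RNA-seq counts and FPKM of 12 libraries, 3 each of RC, RM, MC and MM, were analysed as deposited. The labels gave each library its group. The authors deposited 1 table per species with raw counts per Ensembl gene, whole numbers without normalization, and FPKM values made from these counts. The submitters' processing notes name HISAT2, HTSeq 0.11.2, Rnor_6.0 and GRCm38 without their roles. The kit does not mark strand, and the counting setting is not given in the sources used here, so reads of overlapping and antisense genes cannot be told apart. In GENCODE M21, all 55 mouse members have their symbol, 20 share exon bases with another gene, and 3 (Bmp5, Gdf5, Fstl3) share over 20%.

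The count test was that of edgeR 4.0.16 in R 4.3.3: filterByExpr, TMM, glmQLFit and glmQLFTest for each species, with Benjamini-Hochberg adjustment over all genes tested. The difference between species was the change in mouse minus that in rat, fitted over all 4 groups for genes shared by symbol, with scaling within species. This fit pooled the spread of each gene over both species, although rat libraries varied more (0.106 against 0.0318). For Smad9, Gdf6 and Chrdl1 the SE of the difference (0.52, 0.32 and 0.23) was under that of rat alone (0.59, 0.38 and 0.24). Intervals and adjusted P of the differences may thus be too narrow and too small for genes that vary in rat. SEs and 95% intervals come from the fit. Alternatives were DESeq2 1.42.0, limma 3.58.1 on log2(FPKM + 1), other scalings, filters and thresholds, a replicate block, and leaving out each library. The fits were tested on simulated data in which 200 genes per species changed by 1.5 on the log2 scale, up and down alike. False calls made up 6.47% of edgeR calls in rat, 4.81% in mouse and 7.12% for the difference between species, and 11.8% for that difference with DESeq2. A case with as many changed genes as in mouse was not simulated, so the scaling was not tested there. The depth of 16841580 to 25903459 counts per library sets a floor of 3 counts at 0.1158 to 0.1781 CPM, which covers counting error only.

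The members, the lists and the rule for named genes were chosen with earlier results of these data known. The rule names up to 4 called members per class by size of change, members called in 1 species with signs that differ between species (up to 6), Smad7, Id1 and Id3, and up to 3 called genes per further list. Members outside it are given by shorter values, and some genes that the rule takes from the further lists are not reported here.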

Additional observations from a re-analysis of the deposited data

Results flagged for a closer look

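In 23 named members the change with IL-1β differed between mouse and rat by a test of the difference itself (edgeR, adjusted P under 0.05 over 10912 shared genes). The members were named by the size of their change, and some by signs that differ between the species, so their number is a description and is not read against other genes. The values that follow are the log2 fold change in mouse minus that in rat. Positive differences among ligands and receptors were 3.07 for Inhba, 3.02 for Gdf5, 2.25 for Bmp2 and 0.81 for Tgfbr3. Negative ones were -3.31 for Gdf10, -1.71 for Bmp6, -0.90 for Tgfbr2 and -0.56 for Bmpr1b. For the intracellular genes the difference was 1.32 for Smurf1, 0.42 for Smad7, -0.42 for Smad6 and -2.36 for Smad9, the last with 38 and 41 counts in the rat groups. Antagonists and modulators gave 3.20 for Fstl3, 1.38 for Fstl1, 0.59 for Grem1, -1.27 for Bambi and -3.73 for Chrdl1. The binding proteins Ltbp2 and Ltbp4 gave 1.06 and -0.49. The targets gave -1.69 for Id1, -1.48 for Id3, -1.39 for Id4 and -0.35 for Tgfbi.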

How the results depend on the processing

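With an adjusted P under 0.05 as the only criterion, 20 members were called up and 13 down in rat and 27 up in mouse, and of all genes 2429, 2238, 5521 and 5564 were called up and down in rat and in mouse, against 617, 519, 1862 and 1919. The difference between species was at least 0.85 for 26 of the 43 members that passed. Leaving out each library in turn gave 8 to 10 members up and 3 to 6 down in rat, 12 to 14 up and 15 to 16 down in mouse, and 42 to 47 with a difference. Without RM replicate 3 or RC replicate 1, Nog and Tgfbi joined the 4 downregulated in rat, making 6. Under limma on log2(FPKM + 1), 406 and 275 of all rat genes and 1154 mouse genes were called up, down and up. Scaling by library size alone called 1449 mouse genes up and 2734 down. The uncalled change of Smad9 in rat turned to -0.02 with upper quartile factors, 0.00 with limma, -0.07 with the replicate block, -0.35 without RC replicate 1 and -0.87 without RM replicate 3, in a range up to 0.46 without RC replicate 3. Of the other alternatives for single named members, 531 kept direction and side of the threshold, 13 lost the call and 3 gained it. Same-numbered libraries did not deviate together (correlations of -0.10 to 0.08 in rat and 0.00 to 0.01 in mouse), so the numbers were not taken to pair samples. The replicate block gave 9 and 4 members called in rat, 13 and 16 in mouse, and 44 with a difference. Depth limits Smad9 and Acvr2b in rat. The causes of these shifts were not tested.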
